A study of Mus musculus with 9 samples.

Results

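Circadian clock genes were compared between control Hepa 1-6 cells, a mouse hepatoma line, and knockout lines of Usp5 or Ythdf1. The set held 10 genes chosen by name (Ciart, Per1, Per2, Per3, Cry1, Cry2, Nr1d1, Nr1d2, Dbp and Clock), with earlier results of these libraries known. Their levels and fold changes are therefore given as a description, with no p for any of them, and counts of calls among them stand only beside the share called over all genes. All 10 were among the 53647 genes of the count table, and all 10 were among the 13661 genes with enough counts to be tested. Tests were kept for 67 other clock genes outside the set, of which 59 had enough counts. Their lists were also drawn up with earlier results of these libraries known, so shares called among them are a description.

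Poly(A) RNA was sequenced from 9 samples in 3 groups of 3. Control cells carried a control guide. In the Usp5 knockout, the gene of a deubiquitinase that takes apart free ubiquitin chains was targeted with a guide in a lentiviral CRISPR plasmid. In the Ythdf1 knockout, the gene of a cytoplasmic reader of N6-methyladenosine in mRNA was targeted with CRISPR/Cas9/EGFP plasmids. Knockout lines were grown from single cells by dilution and checked by immunoblot for the targeted protein. The labels do not say whether the 3 samples of a group came from 1 clone or several, or whether the control cells were cloned. They give no agents beyond ordinary growth medium, no harvest time and no step that synchronises the clocks of the cells. In the differences below, loss of the gene cannot be told apart from the clone, the plasmids used or an unmatched harvest time.

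The mammalian clock is a loop of transcription. CLOCK pairs with BMAL1 on E-box elements and activates Per, Cry, Nr1d1, Nr1d2, Dbp and Ciart, and the PER, CRY and CIART proteins then repress that pair. A linked loop runs through REV-ERB repressors (Nr1d1, Nr1d2) and ROR activators on shared response elements, and a further one through DBP and the repressor NFIL3 on D-box elements. In the liver the loop drives daily rhythms of metabolic genes. Cells of a culture can each keep their own time, and a bulk level averages over them. Fewer cells expressing a gene and less RNA per cell therefore cannot be told apart in the levels below.

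The promoters of 4 of the 10 genes are shown because they carry the response elements just named and belong to genes that stood on different sides of control. RefSeq start sites of build GRCm38.p6 were used, which is an older build than the GRCm39 named in the submitters' processing notes. Each window of 300 bases runs from 250 bases before the start site to 50 bases after it, 5′ to 3′ on the strand of the gene. Windows were found for 9 of the 10 genes, and for Per2 none. The windows were chr3:95882179-95882478 for Ciart (minus strand), chr4:151044616-151044915 for Per3 (minus strand), chr11:69098699-69098998 for Per1 (plus strand) and chr10:85185005-85185304 for Cry1 (minus strand). Capitals mark E-boxes (CACGTG), E′-boxes (CACGTT, or AACGTG on the other strand) and D-boxes (TTATGTAA, or TTACATAA on the other strand).
Ciart: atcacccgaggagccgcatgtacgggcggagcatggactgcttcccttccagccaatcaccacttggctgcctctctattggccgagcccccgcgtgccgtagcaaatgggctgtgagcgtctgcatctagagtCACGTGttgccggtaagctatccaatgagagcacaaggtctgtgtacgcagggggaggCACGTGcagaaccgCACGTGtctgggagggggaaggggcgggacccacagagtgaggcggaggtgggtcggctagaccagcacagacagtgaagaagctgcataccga
Per3: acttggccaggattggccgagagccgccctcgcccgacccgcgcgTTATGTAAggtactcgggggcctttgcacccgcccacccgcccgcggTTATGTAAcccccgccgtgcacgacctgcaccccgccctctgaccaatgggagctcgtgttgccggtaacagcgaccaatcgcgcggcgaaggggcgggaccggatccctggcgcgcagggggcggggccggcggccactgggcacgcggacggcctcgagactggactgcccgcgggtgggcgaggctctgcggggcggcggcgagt
Per1: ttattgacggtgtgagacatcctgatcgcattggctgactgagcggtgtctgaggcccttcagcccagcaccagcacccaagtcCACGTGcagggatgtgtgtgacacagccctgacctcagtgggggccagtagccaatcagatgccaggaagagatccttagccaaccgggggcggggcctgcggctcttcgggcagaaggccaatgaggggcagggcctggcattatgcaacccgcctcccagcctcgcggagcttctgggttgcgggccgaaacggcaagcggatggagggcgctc
Cry1: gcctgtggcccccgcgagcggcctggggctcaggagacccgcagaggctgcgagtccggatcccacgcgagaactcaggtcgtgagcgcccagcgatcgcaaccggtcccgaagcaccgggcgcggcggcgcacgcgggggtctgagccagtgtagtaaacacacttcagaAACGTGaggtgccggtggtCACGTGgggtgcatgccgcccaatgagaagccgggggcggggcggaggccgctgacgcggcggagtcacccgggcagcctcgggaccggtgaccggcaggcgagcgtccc

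Ciart held 3 E-boxes, with first bases at -116, -58 and -44 from the start site. Of 32851 RefSeq promoter windows of the same length, 7.15% held at least 1 E-box and 29 (0.0883%) held 3 or more. Per3 held 2 D-boxes, at -205 and -158, and no E-box in this window. A D-box was present in 0.938% of all windows, and 7 windows (0.0213%) held 2 or more. The cutoffs of 3 and 2 equal the counts in the Ciart and Per3 windows, so these shares are a description and not a test. The Per1 window shown held 1 E-box at -166, and Cry1 held 1 at -60 beside an E′-box at -79. The other Per1 window, chr11:69099902-69100201, held none of the motifs searched. An E-box was found for 3 of the 9 genes, Ciart, Per1 and Cry1, and so not for Dbp or Nr1d2. An E′-box was present in 4.68% of all windows, among them those of Nr1d1 (at -28) and Cry2 (at -166). The nuclear receptor half-site AGGTCA, read on the other strand as TGACCT, is part of the element that REV-ERB and ROR proteins bind. It was found for Per1, Nr1d2 and Clock and in 16.3% of all windows. For Per1 and Clock it was not in every window of the gene. The cAMP response element TGACGTCA and the palindrome TTACGTAA were not in the windows of these 9 genes and were in 1.79% and 0.119% of all windows. A match is a run of letters and not a shown binding site.

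The libraries held 24760877 to 42989715 counts. Levels are CPM, counts scaled to library size with TMM factors, as mean ± SD over 3 libraries. The targeted transcripts were present but lower in their own knockouts. Usp5 fell from 214 ± 26.5 CPM in control to 115 ± 6.58 in its knockout, and Ythdf1 fell from 189 ± 7.06 to 48.3 ± 2.22 (edgeR, Benjamini-Hochberg adjusted p = 0.000316 and 1.21e-07). Hepatocyte markers were present, 7 of 10 at 1 CPM or more in control and in the Usp5 knockout and 9 of 10 in the Ythdf1 knockout. Their summed level ran from 2714 to 2806 CPM in control, from 3262 to 3659 in the Usp5 knockout and from 4157 to 4415 in the Ythdf1 knockout, with Afp and Alb as the most abundant. The part of this shift in the clock gene levels was not tested. None of 5 leukocyte and none of 4 endothelial markers reached 1 CPM in any group, and of 5 stellate and fibroblast markers Dcn did, at 999 to 1237 CPM, and Des in control alone, at 1.18 CPM. Control replicate 3 correlated less with the other 2 controls (0.9837 and 0.9839) than these did with each other (0.9945). Mitochondrial transcripts took 5.91% of its counts against 2.33% and 2.32% in those 2, and 3.67% to 6.14% in the Usp5 knockout and 3.51% to 4.96% in the Ythdf1 knockout. All 6 knockout libraries thus lay above control replicates 1 and 2, and the part of this share in the clock gene levels was not tested.

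The largest differences from control within the set were in the Ythdf1 knockout, in Ciart. CIART (CHRONO) is a repressor of the CLOCK and BMAL1 pair. Ciart (ENSMUSG00000038550) stood at 3.82, 3.51 and 4.39 CPM in the 3 control libraries, at 6.58, 6.12 and 6.43 in the Usp5 knockout and at 54.2, 55.6 and 55.5 in the Ythdf1 knockout. Every library of both knockouts lay above every control library, and the Ythdf1 knockout lay far above both other groups. The mean was 3.91 ± 0.447 CPM in control, 6.38 ± 0.232 in the Usp5 knockout and 55.1 ± 0.787 in the Ythdf1 knockout (SD, n = 3). That is 1.65-fold higher than control in the Usp5 knockout, a log2 fold change of 0.72 ± 0.099 (SE), and 14.2-fold higher in the Ythdf1 knockout, 3.83 ± 0.0997. Its promoter is the one with 3 E-boxes printed above, and their part in these levels was not tested.

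The PER proteins are the limiting part of the repressor complex, and the 3 Per genes differed in direction. Per1 (ENSMUSG00000020893), whose transcription also responds quickly to cAMP and glucocorticoid signals, stood at 14.9, 14.8 and 16.5 CPM in control, at 19.1, 22.6 and 16.0 in the Usp5 knockout and at 38.0, 42.5 and 37.1 in the Ythdf1 knockout. The Ythdf1 knockout libraries were all above the rest, while the Usp5 knockout overlapped with control. The log2 fold change of Per1 was 0.33 ± 0.124 (SE) in the Usp5 knockout and 1.35 ± 0.124 in the Ythdf1 knockout, the latter 2.55-fold.

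Per2 (ENSMUSG00000055866), a core repressor of the loop, stood at 3.22, 2.86 and 3.62 CPM in control, at 3.01, 3.39 and 3.08 in the Usp5 knockout and at 7.37, 8.65 and 7.67 in the Ythdf1 knockout. Control and Usp5 knockout covered the same range, and each Ythdf1 knockout library lay above them. Its log2 fold change was -0.03 ± 0.142 (SE) in the Usp5 knockout and 1.29 ± 0.138 in the Ythdf1 knockout, or 2.45-fold. Per3 (ENSMUSG00000028957), the Per gene least needed for rhythm, went the other way. It stood at 1.71, 1.46 and 1.97 CPM in control, at 1.53, 1.82 and 2.2 in the Usp5 knockout and at 0.74, 0.574 and 1.02 in the Ythdf1 knockout. The Ythdf1 knockout libraries were below all others, on few reads: 62 counts in the 3 libraries together against 189 in control and 174 in the Usp5 knockout. The log2 fold change of Per3 was 0.11 ± 0.241 (SE) in the Usp5 knockout and -1.13 ± 0.264 in the Ythdf1 knockout, 2.18-fold lower. With each library left out in turn, the latter ran from -1.4 to -0.99.

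**Figure D1:**
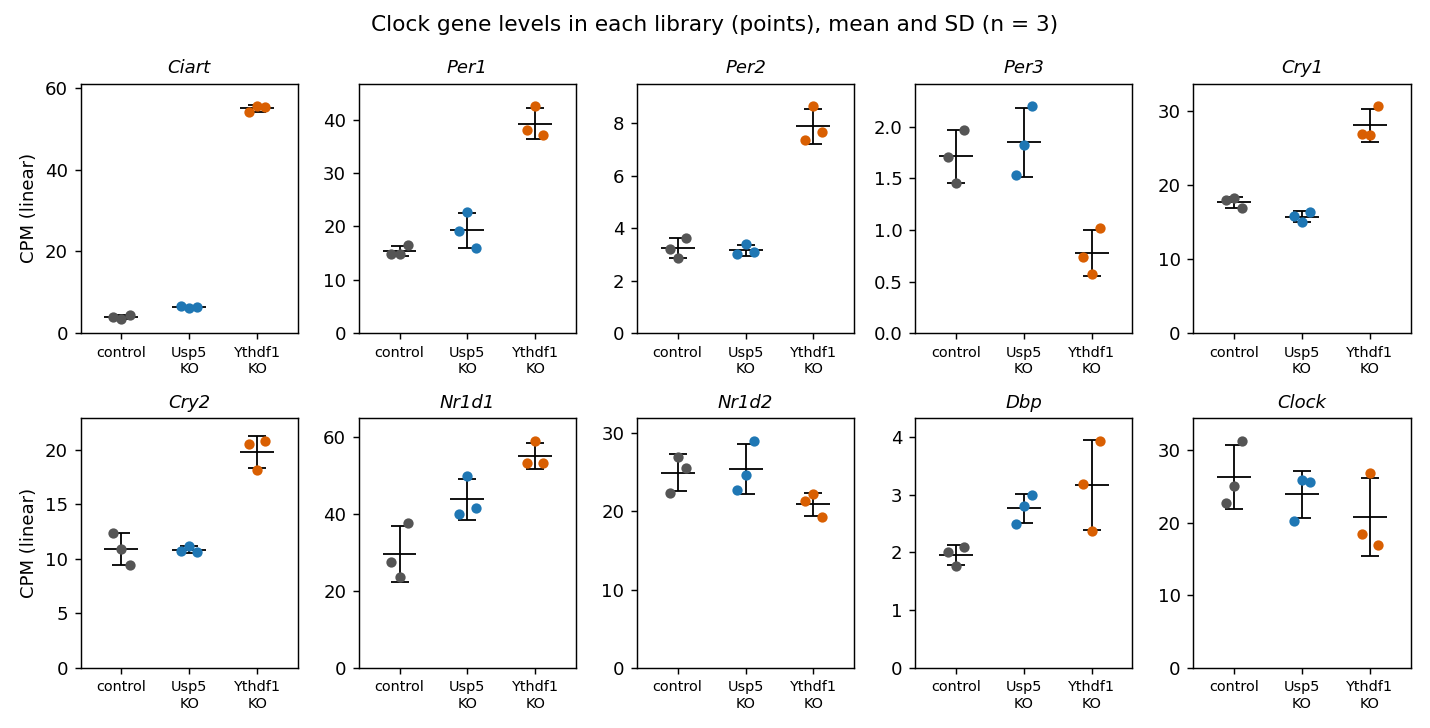
CPM of each of the 10 clock genes (vertical axes, linear from 0) in control, Usp5 knockout (KO) and Ythdf1 knockout libraries; points are libraries, long bars means and capped bars SD (n = 3). Ciart in the Ythdf1 knockout sits at 54.2 to 55.6 CPM against 3.51 to 4.39 in control, while Per3 sits lower, at 0.574 to 1.02 against 1.46 to 1.97.

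Both Cry genes, which encode the main repressors of the CLOCK and BMAL1 pair, were higher in the Ythdf1 knockout. Cry1 (ENSMUSG00000020038) stood at 18, 18.3 and 16.9 CPM in control, at 15.9, 15.0 and 16.4 in the Usp5 knockout and at 26.9, 26.8 and 30.7 in the Ythdf1 knockout. The 3 groups did not overlap, with the Usp5 knockout just below control. Its log2 fold change was -0.17 ± 0.0878 (SE) in the Usp5 knockout and 0.66 ± 0.0872 in the Ythdf1 knockout, or 1.58-fold. Cry2 (ENSMUSG00000068742) stood at 12.4, 10.9 and 9.46 CPM in control, at 10.7, 11.2 and 10.6 in the Usp5 knockout and at 20.5, 18.1 and 20.8 in the Ythdf1 knockout. Usp5 knockout libraries lay inside the control range and Ythdf1 knockout libraries above it. The log2 fold change of Cry2 was -0.02 ± 0.113 (SE) in the Usp5 knockout and 0.85 ± 0.112 in the Ythdf1 knockout, or 1.8-fold.

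The REV-ERB genes differed from each other. Nr1d1 (ENSMUSG00000020889), which encodes REV-ERBα, stood at 27.5, 23.7 and 37.7 CPM in control, at 40.0, 49.8 and 41.4 in the Usp5 knockout and at 53.2, 58.9 and 53.1 in the Ythdf1 knockout. The groups did not overlap, though control replicate 3 came close to the Usp5 knockout. The log2 fold change of Nr1d1 was 0.56 ± 0.157 (SE) in the Usp5 knockout and 0.90 ± 0.157 in the Ythdf1 knockout. Without control replicate 3 the 2 values were 0.77 and 1.1. Nr1d2 (ENSMUSG00000021775), which encodes REV-ERBβ, stood at 22.4, 26.9 and 25.6 CPM in control, at 22.7, 24.6 and 29.0 in the Usp5 knockout and at 21.3, 22.2 and 19.3 in the Ythdf1 knockout. Control and Usp5 knockout overlapped, and the Ythdf1 knockout lay below control by a narrow margin. Its log2 fold change was 0.03 ± 0.113 (SE) in the Usp5 knockout and -0.25 ± 0.114 in the Ythdf1 knockout, and the latter turned to 0.10 when the trends of each library on gene length and GC content were removed.

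Dbp encodes an activator of D-box genes and is itself a direct target of the loop. Dbp (ENSMUSG00000059824) stood at 2.0, 1.76 and 2.09 CPM in control, at 2.49, 2.8 and 3.0 in the Usp5 knockout and at 3.18, 2.37 and 3.93 in the Ythdf1 knockout. Both knockouts lay above control and overlapped with each other, on 218 to 264 counts per group. The log2 fold change of Dbp was 0.50 ± 0.202 (SE) in the Usp5 knockout and 0.70 ± 0.203 in the Ythdf1 knockout, and the latter was 0.27 with the length and GC trends removed. Clock (ENSMUSG00000029238), the activator of the set, stood at 22.7, 25.1 and 31.3 CPM in control, at 20.2, 25.9 and 25.7 in the Usp5 knockout and at 18.5, 26.9 and 17.0 in the Ythdf1 knockout. All 3 groups overlapped. Its log2 fold change was -0.14 ± 0.183 (SE) in the Usp5 knockout, and -0.00 without control replicate 3. It was -0.34 ± 0.185 in the Ythdf1 knockout, a value that turned to 0.20 with those trends removed.

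Nr1d1, Dbp and Cry2 each share exon bases with a gene on the opposite strand, and no source used here states whether counting took account of strand, so their values are uncertain. The 3′ end of Nr1d1 overlaps with Thra, a thyroid hormone receptor gene, over 8.55% of its exon bases. Thra stood at 14.3 ± 0.994 CPM in control, 11.4 ± 2.63 in the Usp5 knockout and 9.52 ± 0.826 in the Ythdf1 knockout, with log2 fold changes of -0.31 and -0.58, the other direction from Nr1d1. Dbp overlaps with Sphk2, a sphingosine kinase gene, over 18.01% of its exon bases. Sphk2 was higher in both knockouts, as Dbp was, at 21.1 ± 0.975, 28.6 ± 0.868 and 37.9 ± 2.15 CPM (log2 fold changes of 0.44 and 0.84). Its part in the level of Dbp was not tested. Cry2 overlaps with D930015M05Rik over 4.67% of its exon bases, and that gene had 0 to 7 counts in each library.

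**Figure D2:**
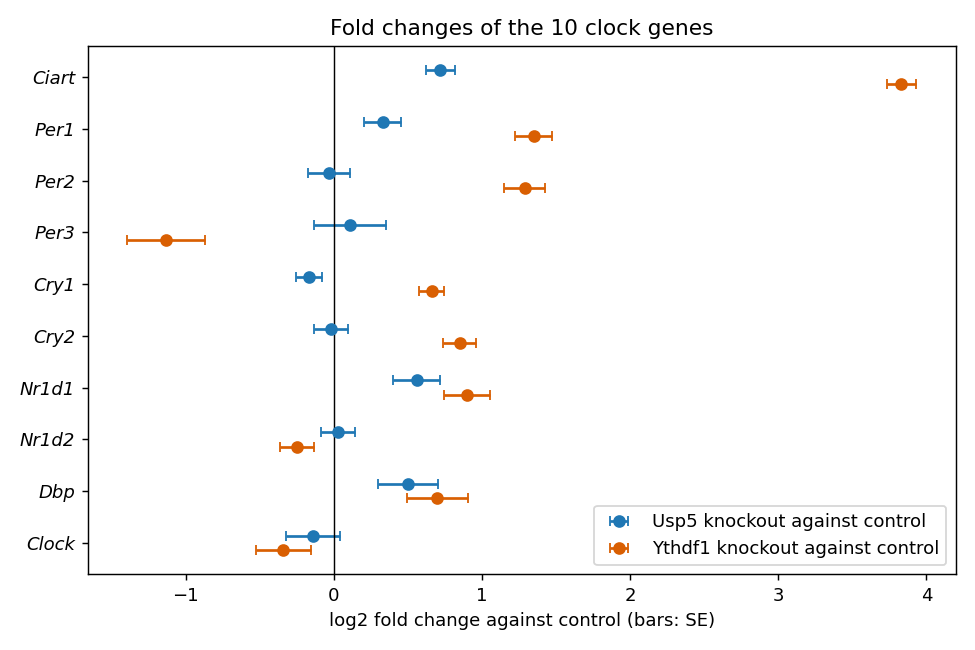
Log2 fold changes of the 10 clock genes against control (horizontal axis) for the Usp5 knockout (blue) and the Ythdf1 knockout (orange); bars are standard errors from the fit over 9 libraries. Both series share the control libraries; Ciart reaches 3.83 and Per3 -1.13 in the Ythdf1 knockout, and the Usp5 values run from -0.17 to 0.72. Nr1d2 and Clock in the Ythdf1 knockout, drawn at -0.25 and -0.34, were 0.10 and 0.20 with length and GC trends removed.

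Counts over the set are given beside those over all genes, and nothing is read from them because the set was chosen with these values known. At an adjusted p under 0.05 (edgeR quasi-likelihood test, Benjamini-Hochberg over all genes), 19.8% of tested genes were called in the Usp5 knockout, 9.96% higher and 9.8% lower than control. Those 2700 genes became 4371 without control replicate 3, and 1494, 1736 and 1626 without control replicate 2, control replicate 1 and Usp5 knockout replicate 2. With all libraries, 2 of the 10 clock genes passed, both higher, and 8 did not. In the Ythdf1 knockout 46.5% of genes were called, 23.7% higher and 22.8% lower. There, 7 of the 10 passed as higher and 1 as lower, while 2 did not pass. Libraries of the Usp5 knockout and control did not overlap for 4 of the 10, against 33.2% of all genes, and those of the Ythdf1 knockout and control for 9 of the 10, against 57.1%. The median log2 fold change of the 10 was 0.0665 in the Usp5 knockout and 0.775 in the Ythdf1 knockout, beside -0.0123 and 0.0211 over all tested genes.

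The knockouts were also compared with each other. These differences are between the 2 knockouts, while their SE and calls come from the fit over all 9 libraries, controls included. Ciart was 8.63-fold lower in the Usp5 knockout than in the Ythdf1 knockout, a log2 difference of -3.11 ± 0.0956 (SE). The differences were -1.32 ± 0.14 for Per2, -1.03 ± 0.123 for Per1, -0.87 ± 0.113 for Cry2 and -0.83 ± 0.0879 for Cry1, and 1.23 ± 0.265 for Per3. Smaller ones were -0.33 ± 0.155 for Nr1d1, -0.20 ± 0.2 for Dbp, 0.20 ± 0.185 for Clock and 0.28 ± 0.114 for Nr1d2, of which the last 3 changed sign with length and GC trends removed (0.19, -0.22 and -0.03). Of all genes, 48.5% were called between the knockouts, 23.3% higher and 25.2% lower in the Usp5 knockout. Of the 10, 1 passed as higher and 5 as lower. Libraries of the knockouts did not overlap for 8 of the 10, all but Dbp and Clock, against 59.0% of all genes.

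To compare genes with each other, levels were divided by gene length and scaled to a fixed total per library (TPM). In control, Nr1d1 was the most abundant of the 10 at 22.1 ± 4.34 TPM (SD, n = 3), above 55.6% of tested genes. Per1 (13.6 ± 0.244), Nr1d2 (12.5 ± 1.29) and Cry1 (12.5 ± 1.1) followed and overlapped from each to the next. Clock stood at 7.45 ± 0.94 TPM, Ciart at 5.93 ± 0.413 and Cry2 at 5.73 ± 0.962, the last 2 overlapping. Dbp (3.26 ± 0.187), Per2 (1.11 ± 0.0858) and Per3 (0.583 ± 0.0624) came last, without overlap, Per3 above only 8.6% of tested genes.

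The order in the Usp5 knockout differed from that in control only in that Ciart, at 8.96 ± 0.801 TPM, came before Clock, at 6.28 ± 1.09. Nr1d1 led at 30.2 ± 3.08. Neighbours overlapped from Per1 (15.6 ± 1.79) through Nr1d2 (11.8 ± 2.36) and Cry1 (10.3 ± 1.18) to Ciart, and from Clock through Cry2 (5.22 ± 0.294) to Dbp (4.28 ± 0.667). Per2 and Per3 came last at 1.0 ± 0.0703 and 0.586 ± 0.146. In the Ythdf1 knockout Ciart came first, at 69.8 ± 1.95 TPM, above 82.4% of tested genes against 31.5% in control. It was followed without overlap by Nr1d1 (34.4 ± 2.6), Per1 (29.0 ± 2.56) and Cry1 (16.5 ± 1.26). Nr1d2 (8.74 ± 0.682) and Cry2 (8.6 ± 0.535) overlapped, as did Clock (4.93 ± 1.34) and Dbp (4.39 ± 1.04). Per2 (2.26 ± 0.229) and Per3 (0.221 ± 0.0624) were again the least abundant.

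**Figure D3:**
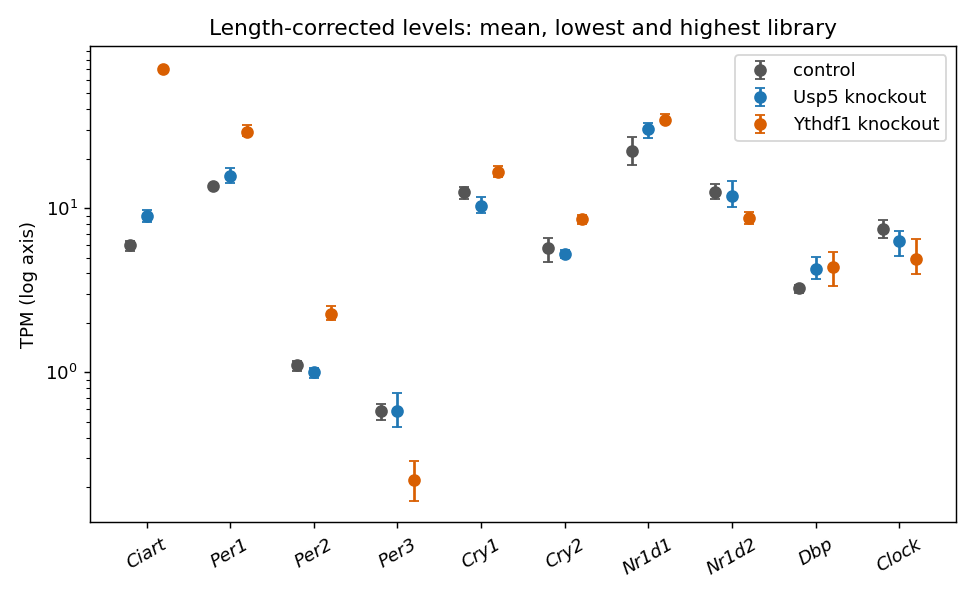
Level per gene length (TPM, log axis) of the 10 clock genes in the 3 groups; points are means and bars run from the lowest to the highest of 3 libraries. Ciart is at 5.93 TPM in control and at 69.8 in the Ythdf1 knockout, the highest of the 10 there, while Per3 is the lowest in each group.

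Other core clock genes, outside the 10, were tested against control. The positive arm held 3 tested genes, of which Npas2 met the count filter only through the Ythdf1 knockout libraries. Arntl and Arntl2 differed from control in the Ythdf1 knockout, where 46.5% of all genes were called. Arntl (the Bmal1 gene), the partner of CLOCK, stood at 16.1, 15.3 and 16.3 CPM in control and at 20.1, 22.6 and 22.7 in the Ythdf1 knockout, without overlap. It rose by 0.45 ± 0.105 (log2, SE; edgeR, Benjamini-Hochberg adjusted p = 0.00551). Its value in the Usp5 knockout was 0.13 ± 0.105 (adjusted p = 0.422). The paralog Arntl2 stood at 12.9, 14.1 and 14.2 CPM in control and at 6.03, 8.12 and 5.97 in the Ythdf1 knockout, where it fell by 1.04 (adjusted p = 0.000612), against -0.01 in the Usp5 knockout (0.967). Npas2, which can stand in for CLOCK, was close to absent, at 2, 1 and 2 counts in control, then 8, 3 and 1 with Usp5 lost, then 12, 16 and 17 with Ythdf1 lost. Its log2 fold change was 3.55 ± 0.561 (SE) in the Ythdf1 knockout, still under 1 CPM in every library, and 1.35 ± 0.695 in the Usp5 knockout. No p is given for Npas2, because only the group where it was highest took it past the count filter.

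Rora encodes a nuclear receptor that activates through the elements that REV-ERB proteins repress. It stood at 3.62, 4.46 and 4.99 CPM in control, at 3.36, 3.43 and 4.16 in the Usp5 knockout and at 3.74, 5.09 and 4.0 in the Ythdf1 knockout, and all groups overlapped. Its log2 fold changes were -0.25 ± 0.178 and -0.02 ± 0.178 (SE; edgeR, Benjamini-Hochberg adjusted p = 0.351 and 0.937). Rorb had 0 to 3 counts in each library and was not tested.

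Among genes acting on D-boxes, Nfil3, the repressor that opposes DBP, stood at 8.85, 8.38 and 7.49 CPM in control, at 11.6, 8.29 and 10.7 in the Usp5 knockout and at 20.4, 19.5 and 21.3 in the Ythdf1 knockout. It rose by 1.30 ± 0.13 in the Ythdf1 knockout (edgeR, Benjamini-Hochberg adjusted p = 4.67e-05). It had a value of 0.31 ± 0.131 in the Usp5 knockout (0.124) and passed without Usp5 knockout replicate 2, at 0.43 (0.0375). Tef, an activator related to DBP, had log2 fold changes of 0.02 and 0.01 (0.931 and 0.925), and Hlf, another, was under the filter with 17 to 25 counts per group. The E-box repressor gene Bhlhe40 was abundant, at 217 ± 33.5 CPM in control, with log2 fold changes of 0.05 and 0.13 (0.808 and 0.35). Without control replicate 3 the value in the Ythdf1 knockout was 0.27 and passed (0.0263). Its relative Bhlhe41 had values of 0.34 and 0.22 on 45 to 61 counts per group (0.581 and 0.672). Gene models on the opposite strand overlap with 19.05% of the exon bases of Bhlhe41, so its counts carry the same doubt as those of Dbp.

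Between the knockouts, Arntl2 was higher in the Usp5 knockout by 1.02 and Nfil3 lower by -1.0 (edgeR, Benjamini-Hochberg adjusted p = 0.000605 and 0.000176). The difference for Npas2 was -2.20, given without a p for the reason above. Arntl was lower by -0.32 (0.0275), a call that ended in 6 of 18 alternative settings. Among these were leaving out Usp5 knockout replicate 1 or 3 (0.139 and 0.0677) and Ythdf1 knockout replicate 2 or 3 (0.101 and 0.121). Rora, Tef, Bhlhe40 and Bhlhe41 did not pass.

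**Figure D4:**
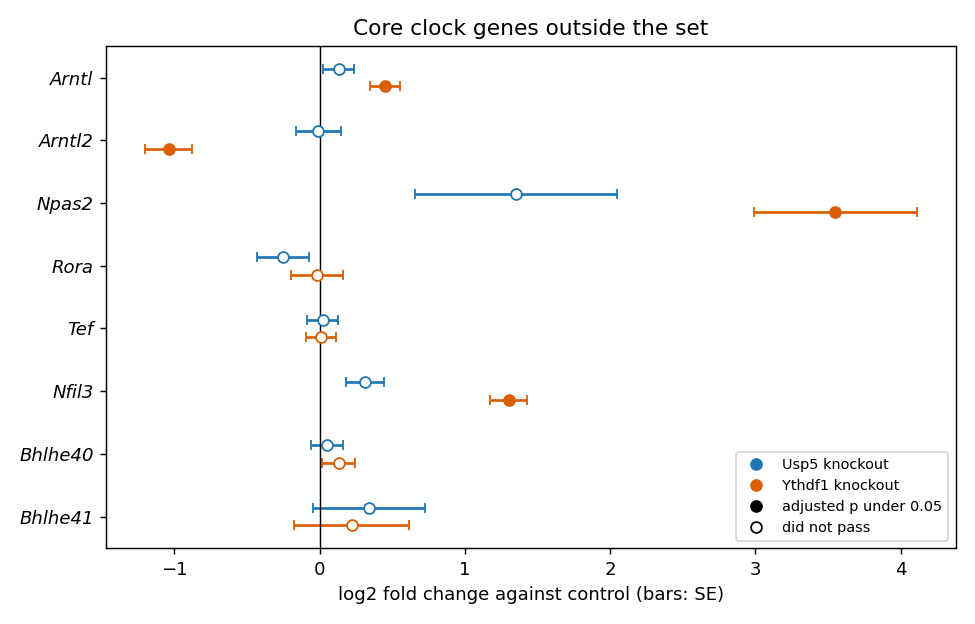
Log2 fold changes against control of 8 core clock genes outside the set, with standard errors; filled points passed at an adjusted p under 0.05 and open points did not. Npas2 (3.55), Nfil3 (1.30), Arntl (0.45) and Arntl2 (-1.04) are filled in the Ythdf1 knockout, and the points of the Usp5 knockout are open. Npas2 met the count filter only through the Ythdf1 knockout libraries, so nothing is read from its filled point.

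Of the 59 other clock genes tested, 6 were higher and 5 lower than control in the Usp5 knockout (18.6%, beside 19.8% of all genes). In the Ythdf1 knockout 23 were higher and 8 lower (52.5%, beside 46.5% of all genes). The median log2 fold changes of the 59 were 0.0467 and 0.157. The 23 include Npas2, which met the count filter only through the Ythdf1 knockout libraries. With library sizes alone in place of TMM scaling, which shifts the median of all genes by -0.0843 and -0.143, the splits were 5 higher and 11 lower, and 15 higher and 13 lower. Over all genes that scaling turned 1361 higher and 1339 lower into 1026 and 1833 in the Usp5 knockout, and 3231 and 3119 into 2159 and 4185 in the Ythdf1 knockout. Without control replicate 3 the Usp5 knockout had 20 of these clock genes called in place of 11. The next paragraphs take them by role, from lists that were drawn up with earlier results known.

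Kinases and ubiquitin ligases set the lifetime of clock proteins. Of 13 tested, 1 was higher and 2 were lower in the Usp5 knockout (23.1%, beside 19.8% of all genes). In the Ythdf1 knockout 3 were higher and 1 was lower (30.8%, beside 46.5% of all genes). Gsk3b, a kinase of several clock proteins, rose in the Usp5 knockout from 70.6 ± 13.4 to 107 ± 8.09 CPM (log2 fold change 0.60; edgeR, Benjamini-Hochberg adjusted p = 0.00862). Fbxw11, which acts on PER, passed at -0.27 (0.0473) and did not in 12 of 18 alternative settings, 7 of them with 1 library left out (adjusted p up to 0.179). In the Ythdf1 knockout, the subunits of casein kinase 2, a PER and BMAL1 kinase, went in opposite directions: Csnk2b rose by 0.74 (0.00206) and Csnk2a1 fell by 0.59 (0.000128). Neither passed with length and GC trends removed (0.35 and -0.22; adjusted p = 0.206 and 0.0885). Siah2, a ligase for REV-ERBα, rose by 0.51 (0.000656), from 37.5 ± 1.85 to 53.6 ± 3.53 CPM.

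Other proteins bind the clock complexes and change their activity. Of 9 such genes tested, 1 was higher and 1 lower in the Usp5 knockout (22.2%, beside 19.8% of all genes). In the Ythdf1 knockout 2 were lower (22.2%, beside 46.5% of all genes). Kdm5a, a coactivator of CLOCK and BMAL1, fell in both: from 94.0 ± 5.77 CPM to 62.1 ± 4.12 in the Usp5 knockout (-0.60; edgeR, Benjamini-Hochberg adjusted p = 0.000863) and to 68.3 ± 4.93 in the Ythdf1 knockout (-0.46, 0.00158). With length and GC trends removed the second value was -0.02 (0.913). Nono, a partner of PER, passed as higher in the Usp5 knockout at 0.46 (0.037), but its libraries overlapped with control and the call ended in 9 of 18 alternative settings, 6 of them with 1 library left out (up to 0.138). Ncor1, the corepressor that works with REV-ERB proteins, passed as lower in the Ythdf1 knockout at -0.41 (0.0416). That call ended in 6 of 18 settings, among them without control replicate 3 (-0.20, 0.0967) and without Ythdf1 knockout replicate 1 or 3 (0.0815 and 0.11).

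Outputs of the loop carry its rhythm into metabolism and signalling. Of 15 tested, 2 were higher and 1 lower in the Usp5 knockout (20.0%, beside 19.8% of all genes). Those called in the Ythdf1 knockout were 9 higher and 3 lower (80.0%, beside 46.5% of all genes). The 15 had median log2 changes of -0.0684 and 0.335, in that order. Tsc22d3, a glucocorticoid-induced leucine zipper gene, rose by 1.16 in the Ythdf1 knockout (edgeR, Benjamini-Hochberg adjusted p = 0.000558), from 11.2 ± 2.95 to 25.2 ± 2.51 CPM. Klf10, a zinc finger repressor, rose by 0.90 (2.38e-05), from 81.1 ± 5.46 to 151 ± 8.93 CPM. Nampt, the limiting enzyme of NAD salvage, fell by 0.66 (0.000806), from 46.6 ± 6.79 to 29.4 ± 2.1 CPM. In the Usp5 knockout, Avpr1a, a vasopressin receptor, rose from 14 ± 1.16 to 35.0 ± 2.77 CPM (1.32, 1.29e-05), and Mreg, melanoregulin, fell from 3.72 ± 0.344 to 1.98 ± 0.388 (-0.90, 0.00648). Both were higher than control in the Ythdf1 knockout, Avpr1a by 0.36 and Mreg by 0.49 (edgeR, Benjamini-Hochberg adjusted p = 0.0125 and 0.0384).

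Usp2, a deubiquitinase with a rhythmic transcript, also went in different directions in the 2 knockouts, as Mreg did. It stood at 5.13 ± 0.857 CPM in control, 9.93 ± 0.642 in the Usp5 knockout (0.96; edgeR, Benjamini-Hochberg adjusted p = 0.00101) and 3.66 ± 0.322 in the Ythdf1 knockout (-0.48, 0.0221). The lower level did not pass without control replicate 3 (-0.34, 0.0553) or Ythdf1 knockout replicate 1 (0.0624). The difference between the knockouts was 1.44 (3.78e-05).

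Genes that respond to signals that reset the clock were also tested, while the signals themselves were not measured. Of 6 tested cAMP and CREB responsive genes, 1 was higher in the Usp5 knockout (16.7%, beside 19.8% of all genes). In the Ythdf1 knockout 4 were higher (66.7%, beside 46.5% of all genes). The median log2 fold changes of the 6 were 0.261 and 0.588. The orphan receptor gene Nr4a1 rose in the Usp5 knockout from 21.0 ± 2.72 to 34.5 ± 3.8 CPM (0.72; edgeR, Benjamini-Hochberg adjusted p = 0.00152). Its relative Nr4a2 rose in the Ythdf1 knockout from 4.82 ± 1.46 to 12.4 ± 2.97 (1.38, 0.000856), and the cAMP phosphodiesterase gene Pde4b from 21.6 ± 3.59 to 46.7 ± 6.53 (1.12, 0.000244). Of 7 tested genes for the glucocorticoid receptor and its targets, 1 was higher in the Usp5 knockout (14.3%, beside 19.8% of all genes). In the Ythdf1 knockout 4 were higher and 1 lower (71.4%, beside 46.5% of all genes). The kinase gene Sgk1 rose in the Usp5 knockout by 0.41 (0.00756). In the Ythdf1 knockout the phosphatase gene Dusp1 rose by 1.17 (0.000101), from 69.8 ± 10.9 to 157 ± 12.6 CPM, and Klf9, a zinc finger gene, by 0.41 (0.00363). Fkbp5, a cochaperone of the receptor, was lower by -0.35 (0.0359), a call that ended without control replicate 1 or 2 (0.115 and 0.111) and without Ythdf1 knockout replicate 1 or 2 (0.0501 and 0.0874).

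**Figure D5:**
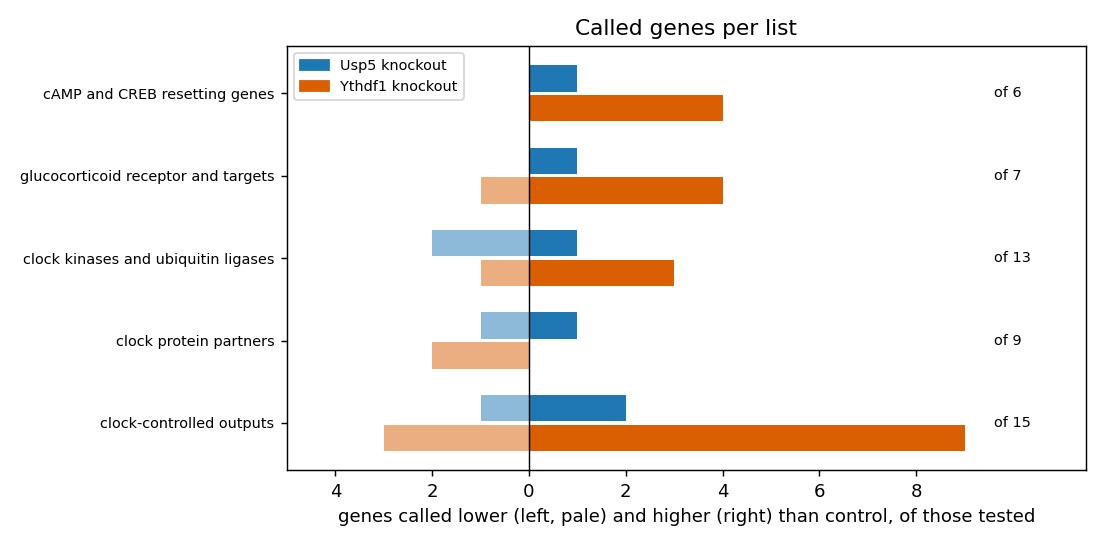
Number of genes called higher (right) and lower (left, pale) than control at an adjusted p under 0.05 in 5 lists of clock-related genes, for the Usp5 knockout (blue) and the Ythdf1 knockout (orange); the number tested stands at the right. Of 15 clock-controlled outputs, 9 are higher and 3 lower in the Ythdf1 knockout. Of all genes, 46.5% were called there and 19.8% in the Usp5 knockout.

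Set against each other, the knockouts differed in 38 of the 59 other clock genes, 14 higher and 24 lower in the Usp5 knockout (64.4%, beside 48.5% of all genes). The Usp5 knockout was higher in Avpr1a (0.96), Gsk3b (0.75), Csnk2a1 (0.58), Sfpq (0.58) and Nr4a1 (0.51). It was lower in Mreg (-1.40), Nr4a2 (-1.26), Tsc22d3 (-1.01), Dusp1 (-0.82), Pde4b (-0.73), the EGF receptor inhibitor Errfi1 (-0.55) and Siah2 (-0.41). In the edgeR quasi-likelihood test the Benjamini-Hochberg adjusted p of these genes ran from 3.99e-05 (Avpr1a) to 0.00683 (Sfpq, a PER partner). A further 6 genes passed but lost the call in 3 to 12 of 18 alternative settings. They were the zinc finger gene Zbtb16 (0.53), Ncor1 (0.40) and the glucocorticoid receptor gene Nr3c1 (0.39), all higher in the Usp5 knockout, and the deacetylase Sirt1 (-0.46), the ligase adaptor Ddb1 (-0.39) and the CLOCK-binding repressor Cipc (-0.27), all lower. Each of them lost it with at least 3 single libraries left out. The highest adjusted p over all settings that ended a call was 0.0891 for Zbtb16, 0.12 for Ncor1, 0.0559 for Nr3c1, 0.108 for Sirt1, 0.0635 for Ddb1 and 0.338 for Cipc.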

How the data were processed

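Samples were mapped to groups by their titles, and count columns to samples by their descriptions. The authors deposited 1 table of estimated counts per gene, written as whole numbers, with a gene length and symbol per row. Per the submitters' processing notes fastp 0.23.2, STAR 2.7.10a and Salmon 1.9.0 were used on GRCm39, without stated roles; the sources used here do not give the annotation release or the strand setting. Counts were taken as rounded estimates. The 10 genes and all lists were chosen with earlier results of these data known.

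Counts were tested in R 4.3.3 with edgeR 4.0.16: TMM scaling, the filterByExpr filter, and the quasi-likelihood test in 1 fit over all 9 samples with group as the only term. Benjamini-Hochberg adjustment ran over all 13661 genes tested, and genes were called at an adjusted p under 0.05. CPM are TMM-scaled, TPM were computed from the counts and deposited lengths, and SE come from the quasi-likelihood F. The labels do not say that samples of a group are separate cultures, so the spread behind each p-value is that of these samples alone and may be technical. The script was tested on simulated data.

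Named genes were both targets, the 10 genes, genes of the 4 core lists, and up to 2 called genes per other list, comparison and direction, those with the largest change whose higher group averaged 1 CPM or more. Thra, Sphk2 and D930015M05Rik were added for their exon overlap. Some genes that the rule takes are counted in the lists but not reported here by name. Promoters came from RefSeq (GRCm38.p6), matched by symbol, with motifs searched on both strands. Exon overlaps and GC content came from GENCODE vM21 on the older build, matched by identifier (97.1% of genes had a GC value).

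The alternatives tried were DESeq2 1.42.0, limma-voom (limma 3.58.1), RLE factors, library sizes alone, no filter, a filter of 1 CPM on the mean, fits of the compared groups alone, a replicate block, removal of length and GC trends, a threshold of 0.01, and leaving out each of the 9 libraries in turn.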

Additional observations from a re-analysis of the deposited data

How the results depend on the processing

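Over the 10 clock genes, the fold changes against control in the Ythdf1 knockout kept their sign in all 18 alternative settings for 8 genes. The exceptions were Nr1d2 and Clock, which went from -0.25 to 0.10 and from -0.34 to 0.20 with length and GC trends removed. Between the knockouts Nr1d2 went from 0.28 to -0.03, Dbp from -0.20 to 0.19 and Clock from 0.20 to -0.22 under the same setting. Dbp also reached 0.01 with 1 library left out. In each case the cause was not tested. Ciart ran from 3.61 to 3.91, Per1 from 1.02 to 1.4, Per2 from 1.15 to 1.38 and Per3 from -1.4 to -0.99 over all settings. In the Usp5 knockout Ciart ran from 0.63 to 0.8 and Nr1d1 from 0.42 to 0.77, and the values of Per2, Per3, Cry2 and Nr1d2 lay near 0 and changed sign in some settings.

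The count of all genes called in the Usp5 knockout, 2700, was 1756 in a fit of only the groups compared and 1305 at an adjusted p under 0.01. Leaving out 1 library gave 1494 (without control replicate 2) to 4371 (without control replicate 3), with 1736 without control replicate 1 and 1626 without Usp5 knockout replicate 2. The 11 other clock genes called there became 17 with no filter, 17 with length and GC trends removed, and 9 to 20 with 1 library left out, the 20 without control replicate 3. The 31 called in the Ythdf1 knockout became 20 at an adjusted p under 0.01, and the 6627 genes called between the knockouts became 4363. The other alternatives kept these counts within 1.5 times.

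The replicate numbers are shared between groups without a stated pairing, and same-numbered libraries deviated together in only some pairs (correlations from -0.257 to 0.298). With the replicate block, 2346, 6198 and 6458 genes were called in the Usp5, the Ythdf1 and the between-knockout comparison, in place of 2700, 6350 and 6627. The other clock genes called were 9, 29 and 36 in place of 11, 31 and 38. Among the named genes Fbxw11 and Nono in the Usp5 knockout and Ncor1 in the other 2 comparisons lost their calls under the block.

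Depth limits Npas2, Per3, Dbp and Bhlhe41 most, with 5 to 264 counts per group. Groups of 3 are small, and a p that misses the threshold does not show that levels did not differ.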
